A study of Mus musculus with 13 samples.

Results

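The genes described here are the 4 early growth response (EGR) transcription factors Egr1, Egr2, Egr3 and Egr4, found by their symbols among the 55291 gene symbols counted in every library. All 4 were detected in all 13 libraries. The family was chosen by its measured fold changes against control, which were known to be low after both lesions, so these differences are given as sizes with standard errors and without p-values, and no count of calls among the 4 genes supports them. RNA came from the CA1 region of organotypic entorhino-hippocampal cultures of wildtype C57BL/6 mice, prepared at postnatal day 4 to 5 and kept for at least 18 days in vitro. The groups were 5 non-lesioned controls, 4 cultures with a Schaffer collateral lesion (SCL), which cuts the axons from CA3 to CA1, and 4 cultures with an entorhinal cortex lesion (ECL), which cuts the perforant path. All were sampled 3 days after the lesion, and each library is a single CA1 region cut out with a scalpel. Such a culture has no external input once it is explanted, also in the control group. Which cultures shared an animal is not given, so p-values measure the spread between cultures.

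EGR proteins are zinc finger transcription factors that bind GC-rich sites. Their genes are immediate early genes: calcium entry and MAP kinase signalling after synaptic activity act through CREB, SRF and its ELK partners on their promoters, and transcripts appear within minutes and decay quickly. In the hippocampus Egr1 is widely used as a marker of recent neuronal activity and is needed for lasting plasticity, and Egr3 is linked to memory and to Arc transcription. Egr2 is best known for hindbrain patterning and for myelination by Schwann cells, but it is also induced in neurons. Egr4 is the member that lacks the binding region for the NAB co-repressors.

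The genes lie apart in the GRCm38 genome. Egr1 has the identifier ENSMUSG00000038418. Egr2 (ENSMUSG00000037868) is on the plus strand of chromosome 10 from 67535475 to 67542188, Egr3 (ENSMUSG00000033730) on the plus strand of chromosome 14 from 70077203 to 70082614, and Egr4 (ENSMUSG00000071341) on the minus strand of chromosome 6 from 85511121 to 85513589. None of the 4 shares exon bases with another annotated gene. RefSeq (GRCm38.p6) promoter windows were matched for Egr2 and Egr4 and are printed for the sites through which activity is known to act. Of 5 Egr2 windows, with a GC content of 54% to 71.2%, the one shown ends at an annotated transcript start and overlaps no exon. Each gives the 250 bases before a start site, with CArG boxes (the SRF binding motif) and cyclic AMP response element core sites (TGACG, or CGTCA where the site is on the other strand) in capitals:
Egr2, chr10:67537619-67537868, plus strand: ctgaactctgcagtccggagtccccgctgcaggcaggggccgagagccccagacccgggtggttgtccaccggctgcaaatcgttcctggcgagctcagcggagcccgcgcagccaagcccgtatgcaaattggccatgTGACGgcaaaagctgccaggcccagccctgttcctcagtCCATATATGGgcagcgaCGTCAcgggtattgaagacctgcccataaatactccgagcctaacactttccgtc
Egr4, chr6:85513590-85513839, minus strand: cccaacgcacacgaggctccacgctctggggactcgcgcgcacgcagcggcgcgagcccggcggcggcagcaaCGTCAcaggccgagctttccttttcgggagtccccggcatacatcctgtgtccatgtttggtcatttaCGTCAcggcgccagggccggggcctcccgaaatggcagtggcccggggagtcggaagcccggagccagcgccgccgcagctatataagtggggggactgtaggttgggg

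The Egr2 window ends at an annotated transcript start and lies inside the span of longer Egr2 transcripts, outside their exons. Of the others, 1 held no listed motif. The window shown holds 1 CArG box, from 72 to 63 bases before the start, between core sites that begin 111 and 55 bases before it. The Egr4 window holds 2 core sites, beginning 177 and 109 bases before the start, and no CArG box. Both strands were searched and the motifs did not overlap. Of all 32851 RefSeq windows of this length, 1.47% held a CArG box and 17.8% held a core site. Neither printed window held the EGR site GCGNGGGCG, which 4.70% of all windows held. The GC content was 61.6% for Egr2 and 68% for Egr4, against a median of 52.4% over all windows.

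Library totals ran from 14371152 to 21092612 counts in controls, while the SCL libraries held 16405517 to 56786613 and the ECL libraries 20210165 to 46449937 counts. Transcripts encoded by mitochondrial DNA took 6.07% to 7.96% of counts in controls, 3.42% to 4.26% after SCL and 4.10% to 5.38% after ECL, and these differences move with the lesion in each result that follows. Their part in the EGR values was not tested. Titles and tissue labels name CA1, whereas the extraction protocol in the labels mentions the dentate gyrus. The summed CA1 pyramidal cell markers (5 of 5 detected) lay between 216 and 293 CPM (counts per 1000000 counts of the library, scaled by TMM factors) in controls. Of the 6 dentate granule cell markers, Dsp and C1ql2 were at or below 1.65 CPM in every library, and Prox1 was between 10.4 and 19.3 CPM.

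Egr1 held 413, 350, 538, 520 and 554 CPM in the 5 controls (475 ± 89.0, SD, n = 5). After SCL it held 85.1, 122, 81.7 and 111 CPM (100.0 ± 19.7, n = 4), and after ECL 91.1, 108, 129 and 122 CPM (112 ± 16.6, n = 4). Every lesioned library was below every control, and the lowest control was 2.88 times the highest SCL library and 2.72 times the highest ECL library. The mean was 21.05% of control after SCL and 23.6% after ECL, and the log2 fold change was -2.26 (SE 0.188) and -2.08 (SE 0.177). In these whole-region extracts, fewer cells that express a gene and less RNA per cell cannot be told apart.

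Egr2 showed the largest difference of the family. The controls held 68.4, 45.8, 105, 119 and 107 CPM (88.8 ± 30.5, n = 5), the SCL libraries 1.75, 4.33, 1.94 and 3.19 CPM (2.80 ± 1.20, n = 4) and the ECL libraries 6.82, 3.16, 3.52 and 4.09 CPM (4.40 ± 1.66, n = 4). The groups were far apart: the lowest control was 10.6 times the highest SCL library and 6.71 times the highest ECL library. These low levels still rested on 48 to 257 counts per library after SCL and 74 to 308 after ECL, against 888 to 2234 in controls. The mean was 3.16% of control after SCL and 4.95% after ECL, with a log2 fold change of -4.98 (SE 0.366) and -4.31 (SE 0.328). No gene among the 11438 compared fell by more than Egr2 on this scale after SCL, and 1 gene among 11212 did after ECL.

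Egr3 was the second most abundant member and the most variable one in absolute level. The controls held 256, 144, 296, 434 and 293 CPM (285 ± 104, n = 5). The SCL libraries held 118, 102, 58.9 and 63.6 CPM (85.6 ± 28.9, n = 4), and the ECL libraries 66.3, 86.6, 118 and 50.1 CPM (80.3 ± 29.4, n = 4). The groups did not overlap, but the gap was narrow, since control replicate 2 was only 1.22 times the highest library of either lesion. The mean was 30.1% of control after SCL and 28.2% after ECL, and the log2 fold change was -1.74 (SE 0.290) and -1.82 (SE 0.293), the smallest of the family in both lesions. 

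Egr4 was the least abundant member in controls, with 26.3, 24.0, 40.9, 24.2 and 38.7 CPM (30.8 ± 8.29, n = 5). It held 5.11, 7.23, 5.65 and 3.88 CPM after SCL (5.47 ± 1.39, n = 4) and 2.61, 4.26, 7.14 and 5.37 CPM after ECL (4.85 ± 1.90, n = 4). Again the groups did not overlap, with the lowest control 3.32 and 3.36 times the highest SCL and ECL library. The mean was 17.7% of control after SCL and 15.7% after ECL, with a log2 fold change of -2.49 (SE 0.252) and -2.68 (SE 0.302).

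**Figure D1:**
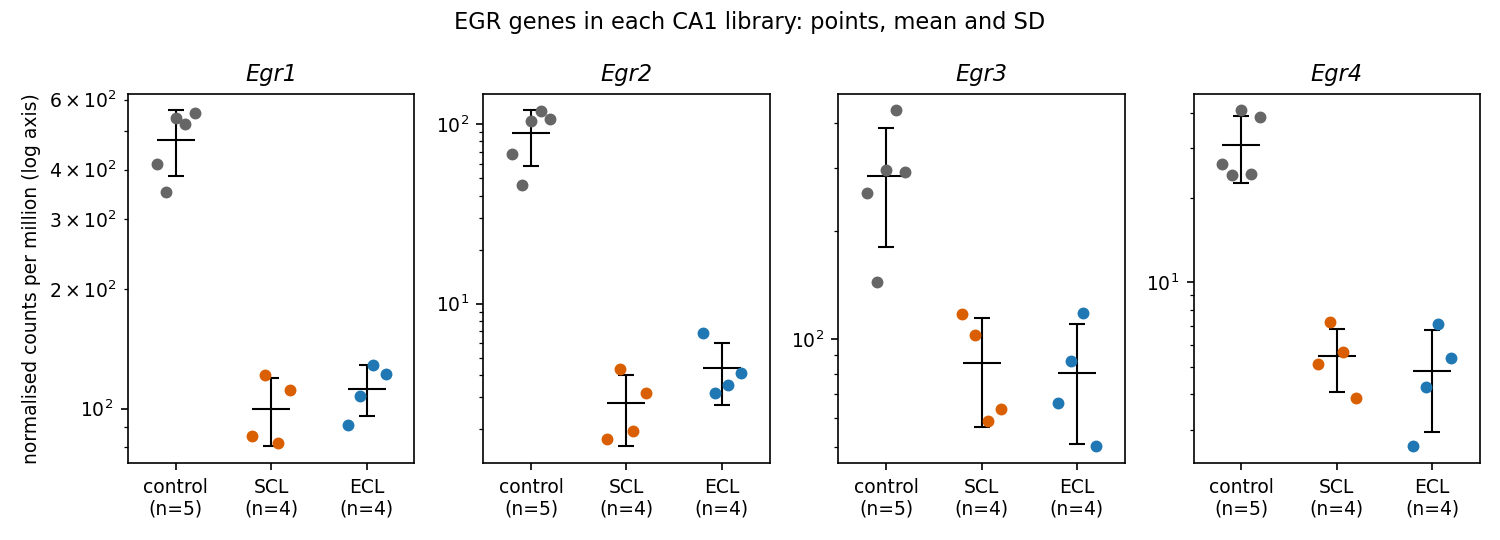
Normalised CPM of each EGR gene on a log axis, 1 point per library, with the mean and SD of 5 control, 4 SCL and 4 ECL libraries; each panel has its own range. All lesioned points lie below all control points in each panel, with the narrowest gap for Egr3 (144 in the lowest control, 118 in the highest lesioned libraries) and the widest for Egr2.

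All 4 genes were thus called lower (adjusted p-value under 0.05) without overlap in both comparisons, which restates how the family was chosen and is no test of it. Over all genes, 11.8% were called lower after SCL and 12.5% after ECL, and 8.97% and 9.53% were lower without overlap. Among the genes that passed the minimum mean count, some fell by more than an EGR gene on the log2 scale. Their number was 20 for Egr1, 0 for Egr2, 45 for Egr3 and 12 for Egr4 after SCL, and 70, 1, 99 and 25 after ECL.

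The libraries of a group also differed from each other, least for Egr1. The SD of log2 CPM was 0.58 for Egr3 and 0.57 for Egr2 in controls, against 0.37 for Egr4 and 0.29 for Egr1, while the median over 11649 genes was 0.29. After SCL it was 0.49 for Egr3, 0.52 for Egr2 and 0.28 for Egr1, and after ECL 0.53 for Egr3, 0.55 for Egr4 and 0.22 for Egr1, with medians over all genes of 0.22 and 0.24. In controls the 3 libraries whose column headings mark them as female were above the 2 marked male for Egr1 (520 to 554 against 350 and 413 CPM), Egr2 (105 to 119 against 45.8 and 68.4 CPM) and Egr3 (293 to 434 against 144 and 256 CPM). For Egr4 they overlapped (24.2 to 40.9 against 24.0 and 26.3 CPM). In the lesioned groups 1 sex had only 1 library: the female ECL library had the lowest Egr1 (91.1 CPM) and the highest Egr2 (6.82 CPM) of its group, and the male SCL library lay within the female range for Egr1, Egr2 and Egr3. Sex was not balanced, with 1 male of 4 SCL libraries and 3 males of 4 ECL libraries, and with sex as a term the log2 fold changes were -5.01 after SCL and -3.996 after ECL for Egr2 and -1.81 and -1.64 for Egr3.

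Dividing by the length of the annotated exons allows levels to be compared between genes. In controls the order per kilobase was Egr1 with 106 ± 19.8 CPM, Egr3 with 64.6 CPM, Egr2 with 26.1 ± 8.99 CPM and Egr4 with 14.4 CPM. Egr1 exceeded 95.5% of the 11492 genes with a known length, Egr3 92.6%, Egr2 82.4% and Egr4 70.0%. This order held within each of the 5 controls, although the ranges of each pair of neighbours overlapped: the lowest Egr1 value was 78.1 and the highest Egr3 value 98.5, the lowest Egr3 value was 32.7 and the highest Egr2 value 34.9, and the lowest Egr2 value was 13.5 and the highest Egr4 value 19.0.

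After the lesions Egr2 moved from the third place to the last. Per kilobase it averaged 0.825 CPM after SCL and 1.29 CPM after ECL, below Egr4 with 2.55 and 2.26 CPM. Egr4 was the higher of the 2 in 4 of 4 SCL libraries and in 3 of 4 ECL libraries, the exception being ECL replicate 1. The ranges were apart after SCL (0.516 to 1.27 for Egr2, 1.81 to 3.37 for Egr4) and overlapped after ECL (0.929 to 2.01 and 1.22 to 3.32). At the top of the order, the ranges of Egr1 (mean 22.3 CPM per kilobase after SCL, 25.1 after ECL) and Egr3 (19.4 and 18.2) overlapped, as in controls. Egr1 was the higher in 4 of 4 ECL libraries and in 3 of 4 SCL libraries, and in SCL replicate 1 Egr3 was the higher with 26.7 against 19.0.

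The summed level of the family was 211 ± 51.2 CPM per kilobase in controls, 45.1 ± 8.70 after SCL and 46.8 ± 9.29 after ECL. Within this sum Egr2 made up 9.94% to 13.4% in the controls, 1.06% to 2.32% after SCL and 1.73% to 5.20% after ECL. Its share in every lesioned library was below that in every control. Egr1 kept a mean share of 51.0%, 50.0% and 54.1% in controls, SCL and ECL. The mean share of Egr3 was 30.0%, 42.5% and 38.2%, and that of Egr4 6.97%, 5.72% and 4.72%, with overlapping ranges for these 3 genes.

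**Figure D2:**
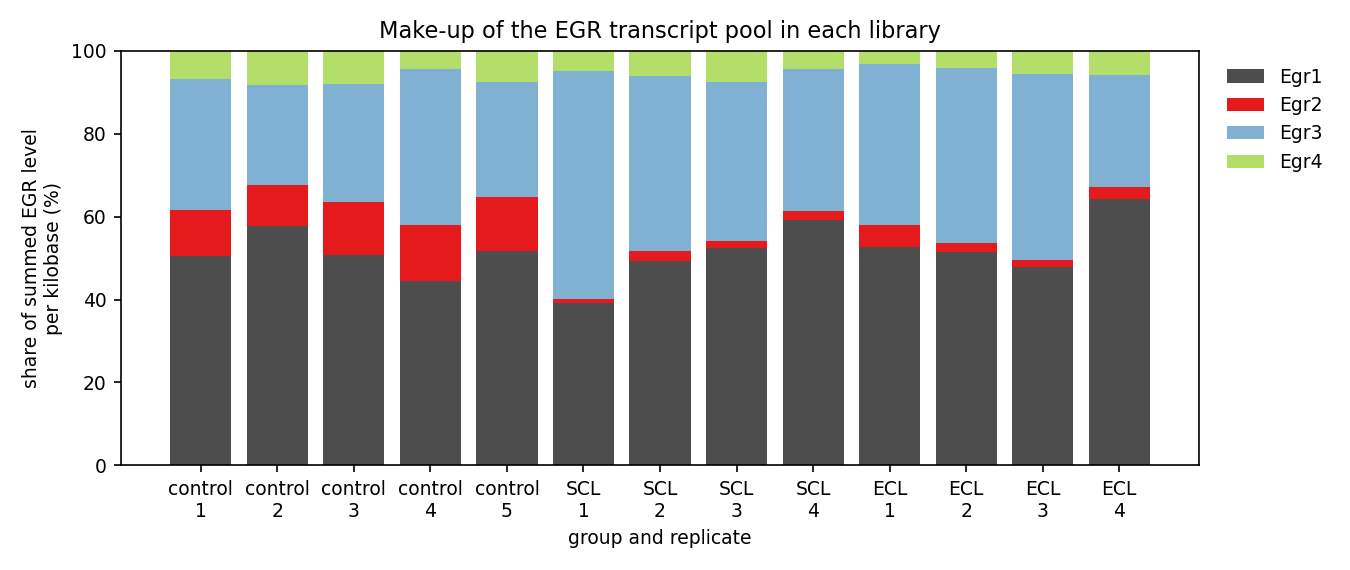
Share of each EGR gene in the summed family level per kilobase, in percent, with 1 bar per library ordered by group and replicate. Egr2 takes 9.94% to 13.4% of each control bar and at most 5.20% of any lesioned bar, while the Egr1 share runs from 39.1% to 64.3% over all libraries.

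Setting each gene against Egr1 of the same library removes the scaling of the libraries altogether. The Egr2 to Egr1 ratio per kilobase lay between 0.172 and 0.301 in controls. It was 0.0272 to 0.0469 in the SCL libraries and 0.0361 to 0.0988 in the ECL libraries, so that lesioned and control libraries did not overlap. The Egr3 to Egr1 ratio overlapped between all groups, with medians of 0.560, 0.795 and 0.780. The Egr4 to Egr1 ratio did as well, with medians of 0.143, 0.125 and 0.0874. Unequal change within the family was thus seen for Egr2 in every lesioned library.

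**Figure D3:**
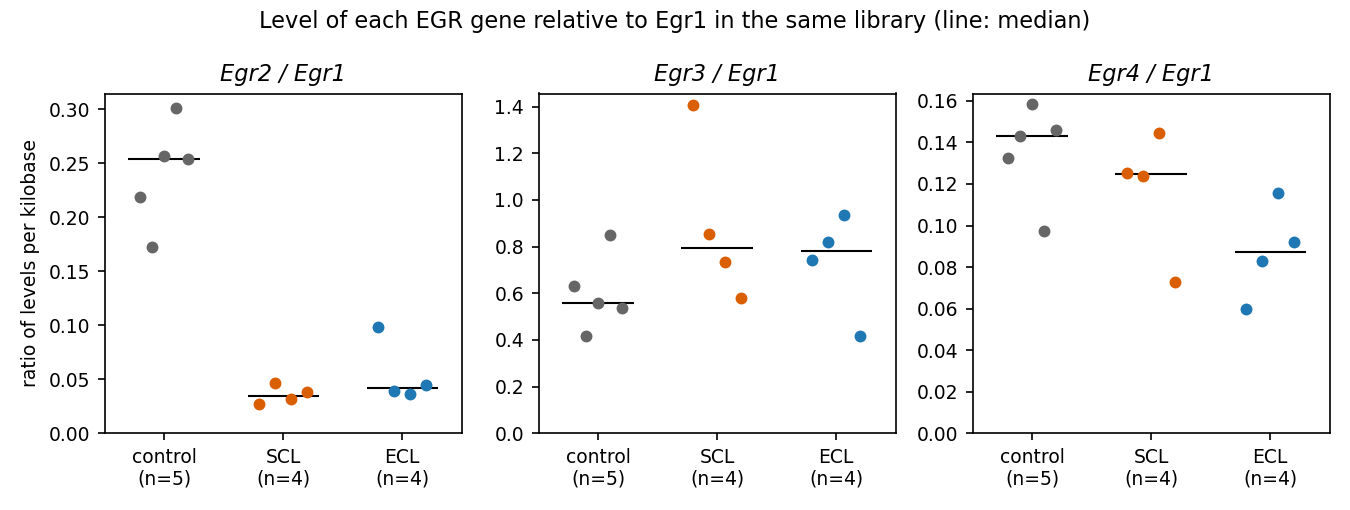
Ratio of the level per kilobase of Egr2, Egr3 and Egr4 to that of Egr1 in the same library, with 1 point per library and the group median as a line, on linear axes that start at 0. The Egr2 ratio is at least 0.172 in controls and at most 0.0988 after either lesion, whereas the other ratios overlap between groups.

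Whether the EGR genes differed between the lesions was asked in the direct comparison of ECL with SCL. This contrast was not itself used to choose the genes. Low values after both lesions were, so it is not fully independent of the choice. Egr1 differed by 0.18 (ECL minus SCL, log2; SE 0.172, 95% confidence interval -0.20 to 0.55, adjusted p = 0.873 by edgeR). Egr3 differed by -0.08 (SE 0.286, interval -0.71 to 0.54, adjusted p = 0.978) and Egr4 by -0.18 (SE 0.306, interval -0.86 to 0.49, adjusted p = 0.932). None of these passed the threshold, and the libraries of both lesions overlapped for each gene. Differences within these intervals could not be told from none with 4 libraries per lesion.

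Egr2 was below the minimum mean count of 150 in this comparison, with a mean of 106. With the minimum lowered to 50 it was higher after ECL by 0.66 (SE 0.347, interval -0.10 to 1.42, adjusted p = 0.690), which did not pass the threshold. With no minimum Egr2 was higher by 0.67 (SE 0.297, interval 0.086 to 1.25, adjusted p = 0.656 by edgeR). That interval lay above 0, but the adjusted p-value did not pass the threshold. Of all 12232 genes compared between the lesions, 0% were called by edgeR, 897 (7.33%) had an unadjusted p-value under 0.05, and DESeq2 called 71.

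The genes whose log2 CPM followed each EGR gene most closely over the 13 libraries were mostly other immediate early genes for Egr1, Egr2 and Egr4. This is a description, since the libraries share the group means and their depth. Egr1 was most like Ier2, an immediate early gene with a nuclear product (Pearson r = 0.988), Arl4d, a small GTPase of the ARF family (0.982), and Egr2 (0.982). Egr2 was most like Ier2 (0.982), Egr1 (0.982) and the predicted gene Gm47088 (0.977), and Egr4 was most like Egr1 (0.964), the long non-coding RNA Meg3 (0.957) and Ier2 (0.955). Egr3 kept other company: Sobp (0.969), the deubiquitinase Usp27x (0.953) and Cds1, an enzyme of phospholipid synthesis (0.952). Among 11648 genes, Egr1 stood at rank 119, Egr4 at rank 204 and Egr2 at rank 225 in likeness to Egr3.

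With group means subtracted, which leaves the variation among replicates, the correlation of Egr3 with Sobp was 0.91 and those of Egr1 and Egr2 with Ier2 were 0.73 and 0.58. Of the 50 most similar genes, 17 were shared by both measures for Egr3, 10 for Egr1, 4 for Egr4 and 3 for Egr2. Sobp lay at 122 ± 22.3 CPM in controls, 70.4 ± 10.96 after SCL and 59.8 ± 7.05 after ECL, and Meg3 at 3027, 1532 and 1399 CPM. Both groups of lesioned libraries were below all controls for these 2 genes.

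Of the proteins that act on EGR factors, 5 of 7 listed genes could be compared with control. Chd3, a chromatin remodeller of the NuRD complex, was lower after SCL (log2 fold change -0.55, adjusted p = 0.0339) and after ECL (-0.66, adjusted p = 0.0124). Nab1, the co-repressor that binds EGR proteins, was lower after ECL (-0.50, adjusted p = 0.0450) and had -0.23 after SCL (adjusted p = 0.303). The helicase Ddx20 (-0.04 and -0.22), Hcfc1 (-0.37 and -0.34) and Chd4 (-0.25 and 0.08) did not pass the threshold in either lesion. This makes 1 of 5 called after SCL and 2 of 5 after ECL, where 24.9% and 27.8% of all genes were called. Nab2, itself described as induced by EGR proteins, was under the minimum with 3.85 ± 2.28 CPM in controls, 5.17 ± 1.32 after SCL and 4.95 ± 0.738 after ECL, and Wt1 was at most 3.03 CPM.

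These calls were near the threshold. That of Chd3 after SCL was lost in 11 of 20 alternatives, among them each of the fits without control replicate 2, 3 or 5 or SCL replicate 1, 2 or 3 (adjusted p = 0.0551 to 0.0921). That of Nab1 after ECL was lost in 14 of 20, among them the fits without control replicate 1, 2 or 5 or ECL replicate 1, 3 or 4 (adjusted p = 0.0598 to 0.112).

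Among the signalling proteins and transcription factors known to act on EGR promoters, 24 of 27 counted genes could be compared. After SCL 3 were higher and 1 lower, with a median log2 fold change of -0.12, and after ECL 4 were higher and 4 lower, with a median of -0.20. The medians over all genes were 0.01 and -0.01. Of all genes, 13.1% and 15.2% were called higher and 11.8% and 12.5% lower. In either direction, 16.7% of the list were called after SCL and 33.3% after ECL, against 24.9% and 27.8% of all genes. Mef2d, an activity-dependent transcription factor of the MADS family, rose from 5.21 ± 1.79 CPM in controls to 17.2 ± 6.76 after SCL and 23.1 ± 2.84 after ECL, with a log2 fold change of 1.71 (SE 0.319, adjusted p = 0.00396) and 2.15 (SE 0.254, adjusted p = 0.000123). Its highest control held 7.99 CPM and its lowest lesioned library 9.74 CPM.

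The histone acetyltransferase Ep300, a co-activator of CREB, fell from 52.4 ± 7.94 CPM to 23.1 ± 3.22 and 26.2 ± 6.31 CPM, with a log2 fold change of -1.19 (adjusted p = 0.00126) and -0.999 (adjusted p = 0.00210). Its relative Crebbp fell after ECL (-0.78, adjusted p = 0.00795) and had -0.54 after SCL (adjusted p = 0.0741). The MAP kinase kinase Map2k1 rose by 0.61 after SCL (adjusted p = 0.0122) and by 0.47 after ECL (adjusted p = 0.0256), and the ribosomal S6 kinase Rps6ka1 by 0.96 and 0.82 (adjusted p = 0.0246 and 0.0488). After ECL the SRF coactivator Mrtfa rose by 0.83 (adjusted p = 0.0314), and the ETS factor Elk3 (-0.75, adjusted p = 0.0295) and Mef2a (-0.41, adjusted p = 0.0356) fell. After SCL Mrtfa had 0.61 (adjusted p = 0.0678), Elk3 -0.39 (adjusted p = 0.205) and Mef2a -0.38 (adjusted p = 0.0642). Between the lesions none of these passed the threshold. Creb1 (-0.15 and -0.25) and Mef2c (-0.21 after SCL) did not pass, and Srf was under 1 CPM in every library.

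The calls of Mef2d and Ep300 in both lesions, of Map2k1 after SCL and of Crebbp after ECL were kept in 20 of 20 alternatives. After ECL, those of Rps6ka1 and Mef2a were each lost in 12 of 20, Elk3 in 10, Mrtfa in 8 and Map2k1 in 4. The Rps6ka1 call after SCL was lost in 3 of 20. Settings other than leaving out a library were among these losses. Leaving out single libraries ended those of Rps6ka1 (SCL replicate 2 or 3; control replicate 3, 4 or 5 or any ECL replicate, adjusted p = 0.0502 to 0.123), Elk3 (control replicate 3 or 5, ECL replicate 1, 2 or 4, adjusted p = 0.0537 to 0.0866), Mef2a (control replicate 4 or 5, ECL replicate 1, 3 or 4, adjusted p = 0.0544 to 0.114) and Mrtfa (control replicate 4 or 5, ECL replicate 1, 3 or 4, adjusted p = 0.05003 to 0.107). For Map2k1 after ECL these were control replicate 3 or 5 and ECL replicate 1 (adjusted p = 0.0566 to 0.0682). For Crebbp after SCL the call was gained without control replicate 2 or SCL replicate 1 (adjusted p = 0.0387 and 0.0336). A call after SCL was gained in 5 of 20 alternatives for Mrtfa and in 2 for Mef2a.

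Of 18 genes described elsewhere as targets of EGR factors, 12 could be compared. After SCL 4 were lower and 0 higher (33.3% called, against 24.9% of all genes, median log2 fold change -0.26), and after ECL 6 were lower and 1 higher (58.3% called, against 27.8% of all genes, median -0.56). The synaptic activity gene Arc fell from 70.6 ± 10.3 CPM to 18.3 ± 3.64 after SCL and 30.1 ± 12.1 after ECL (log2 fold change -1.95, adjusted p = 0.000140, and -1.23, adjusted p = 0.00237). Cdk5r1, which encodes an activator of the neuronal kinase Cdk5, fell from 357 ± 102 CPM to 170 ± 24.1 and 169 ± 38.5 (-1.07 and -1.08, adjusted p = 0.00332 and 0.00223).

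The postsynaptic scaffold gene Dlg4 (-0.59 and -0.71) was lower in both lesions. After ECL the presenilin gene Psen2 (-0.64, adjusted p = 0.0117) and Klf10 (-0.64, adjusted p = 0.0400) were lower, and Syn1, a synaptic vesicle protein gene, was higher (0.86, adjusted p = 0.0136). After SCL Psen2 had -0.26 (adjusted p = 0.210), Klf10 -0.26 (adjusted p = 0.387) and Syn1 0.40 (adjusted p = 0.267). Between the lesions none of these passed the threshold. Syn2, Gabra4, Ache, Cdkn1a and Vgf did not pass in either lesion. The ECL call of Dlg4 was lost in 5 of 20 alternatives, among them those without control replicate 3 or ECL replicate 1 or 2 (adjusted p = 0.0511 to 0.0848). That of Syn1 was lost in 2 of 20, among them the fit without ECL replicate 4 (adjusted p = 0.0534). The SCL call of Dlg4 and the ECL call of Psen2 were each lost in 2 of 20.

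The EGR genes stood within a wider fall of immediate early genes. Of 36 other immediate early genes compared after SCL, 19 were lower and 0 higher, and of 34 compared after ECL, 20 were lower and 0 higher (52.8% and 58.8% called, against 24.9% and 27.8% of all genes, medians -0.70 and -0.80). Part of this list had been seen in results on these libraries, so it is not independent evidence of a direction. Ier2 fell from 70.1 ± 14.1 CPM to 8.73 ± 1.51 and 9.69 ± 2.05 (log2 fold change -3.02 and -2.85), and Arl4d from 26.3 ± 5.14 CPM to 4.11 ± 1.40 and 5.54 ± 1.88 (-2.68 and -2.25). The MAP kinase phosphatase gene Dusp1 (-1.80 and -1.52), the neuronal activity factor Npas4 (-1.73 and -2.02) and Fos (-1.53 and -1.93) fell as well.

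Among the compared genes of the family and this list together, Egr2 had the largest fall in both lesions. Jun (-0.49 after SCL), Junb (-0.59 after SCL), Bdnf (-0.26 after SCL) and Homer1 (-0.21 after SCL) did not pass the threshold. In the RefSeq windows, 22 of the 34 genes of this list with a window held a core site TGACG, 11 held the EGR site and 2 held a CArG box, against 19.8%, 5.33% and 1.62% of all 27025 genes. These are counts of letters and not of bound sites.

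**Figure D4:**
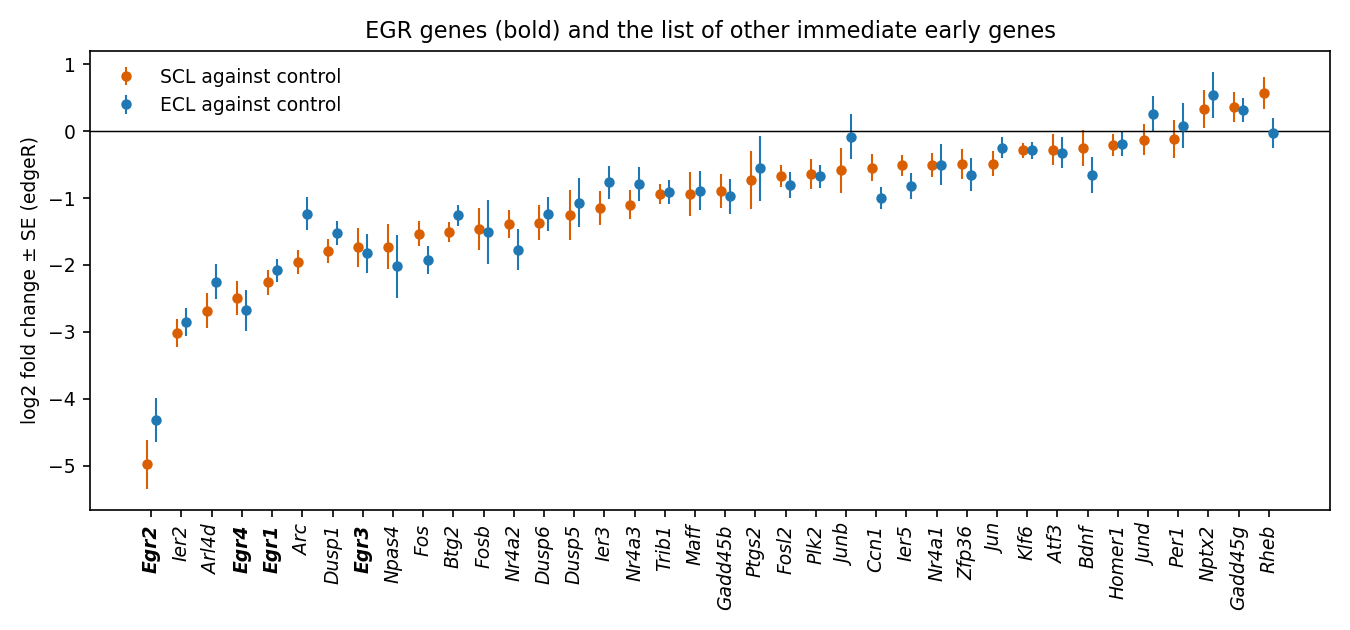
Log2 fold change with its standard error from edgeR for SCL (orange) and ECL (blue) against control, for the 4 EGR genes (bold) and the 34 other immediate early genes compared in both lesions, ordered by the value after SCL. Egr2 lies lowest at -4.98 and -4.31, followed by Ier2, and Egr3 lies at -1.74 and -1.82.

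Markers of several cell types moved with the lesion, and their part in the EGR values was not tested. The summed level of 8 microglia markers was 293 to 352 CPM in controls, 652 to 1376 after SCL and 679 to 1015 after ECL, with 8 of 8 called higher after SCL and 5 of 8 after ECL. That of 5 border macrophage markers was 22.9 to 38.5 CPM in controls, 53.2 to 82.4 after SCL and 41.1 to 62.3 after ECL, carried by F13a1 and Pf4. The medians of Mrc1 (3.74, 2.64 and 2.13 CPM), Cd163 (1.25, 0.366 and 0.256) and Lyve1 (0.654, 0.427 and 0.222) were lower in the lesioned groups. The sum of 7 excitatory neuron markers was 2728 to 3332 CPM in controls, 2345 to 3533 after SCL and 2508 to 3878 after ECL, with 1 of 7 called lower after SCL and 1 of 7 after ECL. The sum of 5 CA1 pyramidal cell markers was 227 to 260 CPM after SCL and 190 to 397 after ECL, which overlapped with controls. Of these markers 1 of 5 was called lower after SCL and 0 after ECL, and 0 were called higher. Pou3f1 lay at 35.6 to 60.0 CPM in controls, 23.9 to 28.6 after SCL and 19.4 to 72.9 after ECL.

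The summed dentate granule cell markers were lower after SCL (47.6 to 51.2 CPM) and ECL (48.8 to 62.4 CPM) than in controls (69.9 to 90.8 CPM), mostly through Stxbp6. Those of 4 endothelial markers fell from a range of 17.9 to 28.3 CPM to 9.79 to 13.2 and 8.95 to 14.8 CPM, mostly through Flt1. Markers of Schwann cells, the cell type in which Egr2 is best known, were near 0: the sum over the list was at most 4.62 CPM and Pmp2 at most 0.0426 CPM in any library. Sums for inhibitory neurons, CA3 pyramidal cells, astrocytes and oligodendrocytes overlapped between the groups, but single markers did not. Of 6 astrocyte markers 3 were called higher after SCL and 2 after ECL, with Gfap at 1702 to 2027 CPM in controls, 2969 to 3662 after SCL and 2841 to 3380 after ECL. Of 6 oligodendrocyte markers 2 were higher after SCL and 2 after ECL, with Mog at 47.7 to 76.8 CPM in controls and at least 97.1 CPM in lesioned libraries. Of all genes, 13.1% and 15.2% were called higher. Of 6 inhibitory neuron markers 1 was lower after SCL and 2 after ECL, where 11.8% and 12.5% of all genes were called lower. Gad1 (at least 275.6 CPM in controls, at most 258.5 after SCL) was among the markers without overlap after SCL.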

How the data were processed

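RNA of 13 CA1 regions was read on polyadenylated transcripts with a kit for low inputs. Per the labels, the authors used CUTADAPT 3.5 for trimming, RNA STAR 2.7.8a for alignment to mm10 and featureCounts 2.0.1 for counting on GENCODE M25 exons, without strand. The deposited values are raw counts, without normalization, 1 library per file. Between 63.0% and 74.3% of values from 1 to 20 were even, which points to separate counting of mates, and halved counts were among the alternatives.

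Each lesion was compared with control, and ECL with SCL, with edgeR 4.0.16 (quasi-likelihood test, R 4.3.3, two-sided) over genes whose normalized counts averaged 150 or more in the libraries compared, as in the study's own filter. TMM factors were computed over these genes and p-values adjusted over them (Benjamini-Hochberg, threshold 0.05). Standard errors were derived from the fold change and its F statistic (SE = |log2 fold change|/√F). The fits were tested on simulated counts. CPM used TMM factors of 11649 genes over all libraries, likeness used log2(CPM + 0.5), and lengths came from GENCODE M21. Sex was read from column headings, which matched sex-linked genes in 13 of 13 libraries.

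The genes and lists were chosen with earlier results of these data known. Named are the EGR genes, all tested co-regulators, at most 4 called members per direction, lesion and other list, and the 3 genes most alike each EGR gene. Others named as not passing, and Klf10, Nab2, Wt1 and Srf, were chosen after their values were seen. Of the listed symbols, 3 are older names not found in the table. Alternatives were DESeq2 1.42.0, other scalings and filters, 1 fit of all libraries, a sex term, a replicate block and leaving out each library. Same-number correlations cannot decide whether replicate numbers pair the cultures, and the main fits had no pairing term. No library was left out. Single results of some listed genes are not reported here.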

Additional observations from a re-analysis of the deposited data

How the results depend on the processing

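The differences of Egr1, Egr2, Egr3 and Egr4 from control are the values by which the genes were chosen, so that their range over the 20 alternatives per lesion is a description. The log2 fold changes ran from -2.36 to -2.04 (SCL) and -2.17 to -1.89 (ECL) for Egr1, -5.30 to -4.75 and -4.61 to -3.996 for Egr2, -1.93 to -1.50 and -2.07 to -1.61 for Egr3, and -2.65 to -2.27 and -2.92 to -2.45 for Egr4. Between the lesions, leaving out single libraries moved Egr3 from -0.08 to between -0.33 and 0.11, above 0 without ECL replicate 1 or 4 or SCL replicate 1 or 2, and Egr4 from -0.18 to between -0.31 and 0.034, above 0 without ECL replicate 1, none past the threshold. With a sex term the differences between the lesions were 0.0093 for Egr1, -0.039 for Egr3 and -0.37 for Egr4, also not past the threshold. The mean levels per kilobase and shares stayed within 1 SD with the longest transcript as length or without TMM factors. Likeness with group means subtracted was 0.73 (Egr1 with Ier2), 0.58 (Egr2 with Ier2), 0.91 (Egr3 with Sobp) and 0.61 (Egr4 with Egr1).

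Counts of called genes depended more on the processing. Without a filter on low counts there were 5390 after SCL, 8034 after ECL and 217 between the lesions. Leaving out single libraries gave 1679 to 2797 after SCL (1679 without SCL replicate 3), 2088 to 3062 after ECL and 0 to 54 between the lesions (54 without SCL replicate 3, 2 without ECL replicate 4). Between the lesions DESeq2 called 71, the fit of all 13 libraries 1 and the fit with a sex term 1. TMM factors over all symbols brought the median log2 fold change of all genes to 0.21 (SCL, from 0.01) and 0.18 (ECL, from -0.01) and turned the 1504 higher and 1344 lower calls after SCL into 2516 and 596, and the 1708 and 1406 after ECL into 2435 and 695. With DESeq2 size factors in edgeR the split after SCL was 1761 and 989, and with DESeq2 itself 2115 and 1227. Of the other named genes, Ddx20 after SCL (-0.04) turned to 0.035 with DESeq2, 0.036 with its factors, 0.17 with TMM over all symbols or no filter, and 0.027 with the heading numbers as a block. It ran from -0.15 to 0.072 when single libraries were left out, above 0 without control replicate 2 or 4 or SCL replicate 2. Chd4 after ECL (0.08) turned to -0.024 with a sex term and ran from -0.069 to 0.18 when single libraries were left out, below 0 without control replicate 4 or ECL replicate 3. The cause of these shifts was not tested. 

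Whether replicate numbers in the labels pair the cultures is not given. Of 12 same-number correlations of deviations from the group means, 4 were over 0.1 (range -0.18 to 0.55). Correlations between different numbers were not computed, so these values cannot decide on pairing. With the number as a replicate block, 2342 genes were called after SCL, 2663 after ECL and 0 between the lesions. A block on the numbers in the column headings, chosen after seeing the data, gave 1824 after SCL.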
